A study of Mus musculus with 46 samples.

Results

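S100 proteins and annexins are calcium-binding proteins of the cytosol and the cell surface. S100 proteins are small EF-hand proteins that act mostly as dimers, and several of them are also released and then signal through receptors such as Tlr4 and the receptor for advanced glycation end products, encoded by Ager. Annexins bind acidic phospholipids when calcium is raised and take part in membrane repair, vesicle traffic and the clearance of dying cells. In liver, S100a8 and S100a9 are known from neutrophils and monocytes, S100a4 and S100a6 from stromal and infiltrating cells, and Anxa2 with its partner S100a10 from injured or remodelling tissue.

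The 10 genes described here are S100a4, S100a6, S100a8, S100a9, S100a10, S100a11, Anxa1, Anxa2, Anxa3 and Anxa5. They were taken by symbol from a count table of 25494 gene rows, where each symbol had 1 row, and all 10 passed the filter on low counts that left 13494 rows for testing. The livers came from male C57BL/6 mice that were acclimated on NIH-31 chow and then kept for 20 weeks on a lipid-rich diet (LD, labelled high fat, with 60% of energy from lipid, 20% from carbohydrate and 20% from protein) or on a carbohydrate-rich diet (CD, labelled low fat, with 10% from lipid, 70% from carbohydrate and 20% from protein). RNA was sequenced from 5 mice a diet, H3K27ac, a histone mark of active promoters and enhancers, was mapped in 3 samples a diet, and the liver transcription factors Hnf4a and C/EBPa in 2 samples a diet each. Promoter capture Hi-C (PCHi-C), which records the DNA fragments that promoters contact, was made from 2 samples a diet and is given as 1 pooled list a diet. The tissue was whole liver, and the control diet is not chow but a defined diet rich in carbohydrate. In whole tissue, a change in the number of cells of a type and a change in the RNA of each cell cannot be told apart.

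The RNA libraries held 31707963 to 39012699 counted read pairs, and every 2 mice correlated across genes at 0.958 to 0.993 on the log2 scale. Hepatocyte markers were high in all 10 mice (Alb 60338 to 76681 CPM, which are counts scaled to a common library size), and the adipocyte markers Lep and Plin1 were at 0 in every library. 1 library stood apart for several of the genes: LD mouse 2 had the highest S100a4, S100a6, S100a8, S100a9, Anxa1 and Anxa3 of all mice. The neutrophil marker list (10 genes) summed to 44.6 CPM in LD mouse 2, against 4.53 to 5.21 in the other 4 LD mice and 3.16 to 4.36 in the CD mice. The fold changes of S100a6, S100a8, S100a9 and Anxa3, the order by TPM and the nearest patterns are therefore given with and without LD mouse 2. H3K27ac peaks covered 5.51% to 5.90% of the genome on LD, against 5.14% to 5.35% on CD.

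Sequences are shown for the sites that recur in the results, read from the mm9 reference, which is the build of the deposited coordinates. In each, capitals mark matches on either strand to 1 of 3 motif strings that were searched in the whole window, TTGCNNAA for C/EBP, TGANTCA for AP-1 and CAAAGNNCA for HNF4, which do not overlap each other in the sequences printed. The promoters below (250 bases before the deposited start and 50 bases from it, in the direction of the gene) are those of S100a8 and S100a9, which encode the subunits of 1 complex, and of S100a11 and Anxa2, which hold the AP-1 string. The first is chr3:90472743-90473042 (plus strand), the second chr3:90499594-90499893 (minus strand), the third chr3:93324168-93324467 (plus strand) and the fourth chr9:69301240-69301539 (plus strand).
S100a8 promoter: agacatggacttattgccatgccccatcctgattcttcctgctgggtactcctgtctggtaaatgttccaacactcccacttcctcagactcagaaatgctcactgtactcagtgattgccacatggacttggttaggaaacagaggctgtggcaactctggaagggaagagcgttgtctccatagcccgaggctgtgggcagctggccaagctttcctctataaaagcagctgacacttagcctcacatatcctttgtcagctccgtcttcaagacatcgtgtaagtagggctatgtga
S100a9 promoter: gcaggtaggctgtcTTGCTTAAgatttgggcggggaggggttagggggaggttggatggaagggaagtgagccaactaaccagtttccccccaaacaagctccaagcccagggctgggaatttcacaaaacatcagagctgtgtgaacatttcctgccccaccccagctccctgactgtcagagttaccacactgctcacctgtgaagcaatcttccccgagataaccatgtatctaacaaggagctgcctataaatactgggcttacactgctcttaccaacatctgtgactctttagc
S100a11 promoter: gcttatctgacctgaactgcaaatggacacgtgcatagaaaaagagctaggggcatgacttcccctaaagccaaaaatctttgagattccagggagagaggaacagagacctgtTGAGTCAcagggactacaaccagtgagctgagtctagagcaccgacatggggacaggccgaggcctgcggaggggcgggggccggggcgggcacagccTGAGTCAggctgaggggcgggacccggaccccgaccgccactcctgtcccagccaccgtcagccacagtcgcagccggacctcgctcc
Anxa2 promoter: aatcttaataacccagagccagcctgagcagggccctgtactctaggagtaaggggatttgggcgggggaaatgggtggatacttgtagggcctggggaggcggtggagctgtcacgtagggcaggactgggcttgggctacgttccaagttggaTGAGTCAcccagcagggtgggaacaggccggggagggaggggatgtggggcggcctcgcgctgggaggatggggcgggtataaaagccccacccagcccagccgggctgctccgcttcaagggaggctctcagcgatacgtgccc

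The 4 distal windows below reach 100 bases to either side of a peak centre, on the plus strand. The Anxa2 window, chr9:69287582-69287782, is the C/EBPa site of the highest mean peak height near any of the 10 genes and lies between genes, 13808 bases upstream of Anxa2. The Anxa3 window, chr5:97229072-97229272, is the strongest C/EBPa site near Anxa3, in an intron of that gene. The Anxa5 window, chr3:36385189-36385389, and the S100a10 and S100a11 window, chr3:93343466-93343666, are Hnf4a sites between genes, inside stretches that carried H3K27ac in all 3 LD and in no CD samples.
Anxa2 C/EBPa site: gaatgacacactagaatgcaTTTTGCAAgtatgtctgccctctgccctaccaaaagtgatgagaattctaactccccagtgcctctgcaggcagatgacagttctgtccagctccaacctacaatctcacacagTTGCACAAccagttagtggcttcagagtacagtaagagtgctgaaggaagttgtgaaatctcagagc
Anxa3 C/EBPa site: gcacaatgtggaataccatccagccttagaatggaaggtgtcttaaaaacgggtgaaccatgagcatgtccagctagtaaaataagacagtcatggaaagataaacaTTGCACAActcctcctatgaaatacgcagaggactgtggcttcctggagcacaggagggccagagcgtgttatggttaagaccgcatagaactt
Anxa5 Hnf4a site: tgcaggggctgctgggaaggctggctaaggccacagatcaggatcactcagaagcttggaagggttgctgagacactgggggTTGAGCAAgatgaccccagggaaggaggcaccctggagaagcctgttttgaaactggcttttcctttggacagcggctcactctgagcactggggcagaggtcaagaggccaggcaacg
S100a10 and S100a11 Hnf4a site: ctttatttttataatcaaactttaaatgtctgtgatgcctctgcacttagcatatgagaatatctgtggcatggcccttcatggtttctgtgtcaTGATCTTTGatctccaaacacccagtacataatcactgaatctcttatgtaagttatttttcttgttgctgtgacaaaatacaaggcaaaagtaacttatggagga

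The Anxa2 site held TTGCNNAA at 2 places and the Anxa3 site at 1, where 25.3% of 97357 C/EBPa loci held it in a window of that length. Of the strongest C/EBPa sites near the other genes, that of S100a9 held it. Those of S100a6, S100a8, S100a10, S100a11 and Anxa5 did not. At the Anxa5 Hnf4a site printed above the same C/EBP string was found, which 16.5% of 70692 Hnf4a loci held. The S100a10 and S100a11 Hnf4a site held CAAAGNNCA, which 14107 of the Hnf4a loci held. Among the promoters of the 10 genes, TTGCNNAA was in 2 (S100a9 and Anxa1), TGANTCA in 2 (at 2 places in S100a11 and 1 in Anxa2) and CAAAGNNCA in 0. Of 13474 promoters of tested genes, 8.75% held TTGCNNAA, 4.97% held TGANTCA and 5.43% held CAAAGNNCA. A match describes the letters only.

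RNA of 8 of the 10 genes was called higher on LD, and that of none lower. The called genes were Anxa2, S100a4, S100a11, Anxa5, S100a10, Anxa1, Anxa3 and S100a8, with fold changes of 1.48 to 5.50 in the fit of edgeR for all but S100a8. That of S100a8 was 12.8 (3.67 on the log2 scale) with LD mouse 2 and 1.65 on the log2 scale without it. Over all 13494 tested rows, 13.8% were called higher (1859) and 11.1% lower (1498), at an adjusted p under 0.05 and a fold change above 1.2. Scaled by library size alone, these numbers were 2433 and 908, with 9 of the 10 genes higher. The median log2 fold change of the 10 genes was 1.605, against -0.0019 over all tested rows. The 10 genes were chosen with earlier results of these data known, so the comparison with all rows is a description and not a test. For 8 genes (all but S100a6 and Anxa3) the 5 LD mice lay above the 5 CD mice, which was so for 10.2% of all tested rows.

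**Figure D1:**
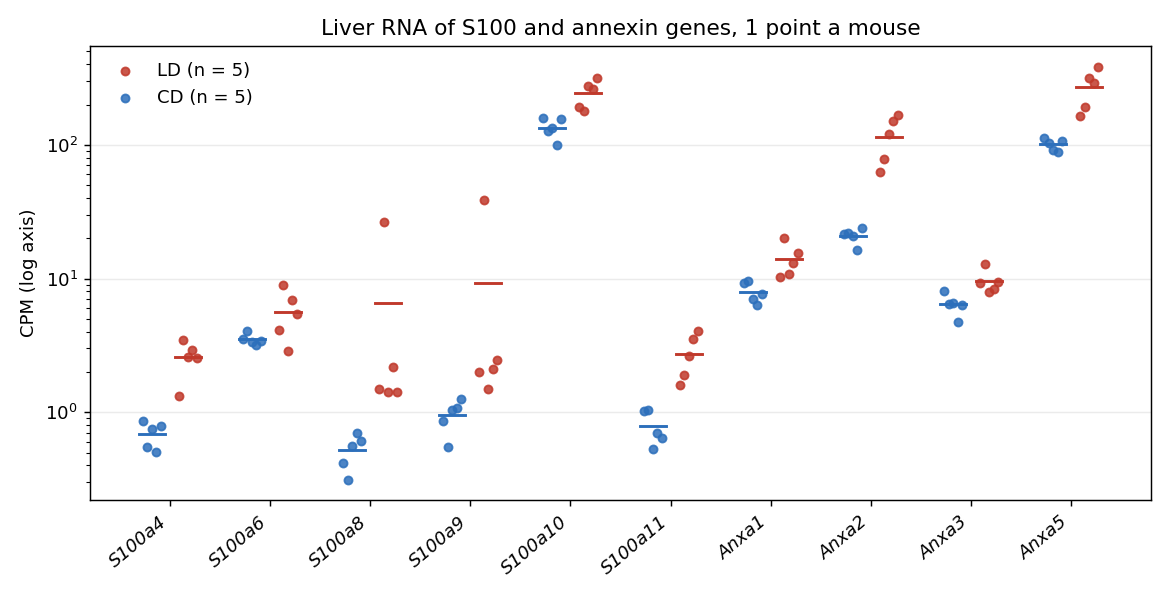
CPM of the 10 genes in each mouse on a log axis, with LD in red and CD in blue and the mean as a bar. LD mouse 2 is the high point at 26.4 CPM for S100a8 and 38.5 CPM for S100a9, and the Anxa2 values of LD, 62.1 to 166 CPM, all lie above those of CD, 16.4 to 24.0 CPM.

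Anxa2 encodes annexin A2, which joins S100a10 in a heterotetramer that binds plasminogen and tissue plasminogen activator at the cell surface. Its CPM was 62.1, 77.9, 120, 150 and 166 in LD mice 1 to 5 and 21.5, 21.8, 20.8, 16.4 and 24.0 in CD mice 1 to 5. All LD mice were above all CD mice, and the LD values were spread more widely. The log2 fold change was 2.46 ± 0.27 (SE; 5.50-fold, adjusted p = 0.00026 in edgeR's quasi-likelihood test).

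S100a10, also called p11, is the light chain of that complex and does not bind calcium. Its CPM was 191, 179, 276, 259 and 314 in LD mice 1 to 5, and 157, 127, 133, 98.9 and 156 in the CD mice. The groups did not overlap, and the rise was smaller than that of Anxa2 (1.82-fold, log2 fold change 0.86 ± 0.17, adjusted p = 0.00344). In TPM, which also scales by transcript length, S100a10 was the most abundant of the 10 genes on both diets, at 370 ± 58.5 TPM on CD and 716 ± 195 TPM on LD (SD, n = 5). The ratio of Anxa2 TPM to S100a10 TPM was 0.0742 ± 0.0063 on CD (range 0.0646 to 0.0811) and 0.218 ± 0.0463 on LD (range 0.154 to 0.273). The ratio therefore did not overlap between the diets, with Anxa2 below S100a10 in every mouse.

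Anxa5, whose protein binds phosphatidylserine exposed on dying cells, was second in abundance. It measured 164, 191, 315, 288 and 384 CPM in LD mice 1 to 5 and 113, 104, 91.6, 88.3 and 107 CPM in the CD mice. Every LD mouse was above every CD mouse (2.67-fold, log2 fold change 1.42 ± 0.21, adjusted p = 0.000858). LD mice 1 and 2 had the lowest LD values of Anxa5, as they did of Anxa2, S100a10 and S100a11.

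S100a4, a marker of fibroblasts and of some macrophages, was low in counts (16 to 27 read pairs in the CD mice, 49 to 138 in the LD mice). Its CPM was 1.33, 3.47, 2.61, 2.91 and 2.54 in LD mice 1 to 5 and 0.86, 0.548, 0.754, 0.508 and 0.786 in the CD mice. The groups were apart, with LD mouse 1 nearest to CD (3.71-fold, log2 fold change 1.89 ± 0.26, adjusted p = 0.000213).

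S100a11, which binds annexin A1, had 1.597, 1.89, 2.64, 3.55 and 4.05 CPM in LD mice 1 to 5 and 1.02, 1.04, 0.531, 0.699 and 0.64 CPM in the CD mice. The difference was 3.47-fold (log2 fold change 1.79 ± 0.29, adjusted p = 0.000661), with no overlap between groups. The level of S100a11 is uncertain, because 98.2% of its transcript had near-identical copies (at least 95% identity over at least 150 bases) at 2 other places in the genome, and read pairs that fit several places may not have been counted. None of the other 9 genes had such a copy.

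Anxa1, whose product dampens the recruitment of neutrophils through formyl peptide receptors, had 10.2, 20.1, 10.9, 13.1 and 15.6 CPM in LD mice 1 to 5 and 9.24, 9.66, 7.07, 6.29 and 7.60 CPM in the CD mice. The gap between the groups was narrow (10.2 against 9.66 CPM), and the fold change was 1.76 (log2 fold change 0.81 ± 0.19, adjusted p = 0.00686). Anxa3 had 9.20, 12.7, 7.98, 8.28 and 9.34 CPM in LD mice 1 to 5 and 8.03, 6.42, 6.54, 4.73 and 6.37 CPM in the CD mice. CD mouse 1 lay just above LD mouse 3, and the change was the smallest of those called (1.48-fold, log2 fold change 0.57 ± 0.15, adjusted p = 0.0131). Without LD mouse 2 it was 0.44 on the log2 scale (adjusted p = 0.0277). The call of Anxa3 was lost in edgeR's test against a fold of 1.2.

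S100a8 and S100a9 encode the subunits of calprotectin, an abundant product of neutrophils and some monocytes. S100a8 had 1.49, 26.4, 1.43, 2.18 and 1.43 CPM in LD mice 1 to 5 and 0.414, 0.313, 0.559, 0.699 and 0.611 CPM in the CD mice. Each LD mouse was above each CD mouse, but LD mouse 2 was far above the other LD mice. The fitted log2 fold change was 3.67 ± 1.13 (adjusted p = 0.0406). Without LD mouse 2 it was 1.65 (adjusted p = 0.000647), so the fold change depended on that library and the direction did not. The call was lost when any 1 CD mouse was left out (adjusted p = 0.0794 to 0.0921, log2 fold change 3.53 to 3.80) and with no filter on low counts (adjusted p = 0.0578), the test against a fold of 1.2 gave an adjusted p of 0.0852, and DESeq2 gave no adjusted p for this gene.

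S100a9 had 2.002, 38.5, 1.49, 2.12 and 2.46 CPM in LD mice 1 to 5 and 0.86, 0.548, 1.03, 1.08 and 1.25 CPM in the CD mice. Its groups also did not overlap, with LD mouse 2 far above the rest. It missed the threshold (log2 fold change 3.30 ± 1.14, adjusted p = 0.0635), and without LD mouse 2 it passed it with a smaller change (1.08, adjusted p = 0.00541). Of the granulocyte genes in LD mouse 2, Ltf was at 14.1, Ngp at 11.8 and Camp at 7.58 CPM. The other LD mice had at most 0.186 CPM of Ltf, 0.135 of Ngp and 0.028 of Camp. CD mice had at most 0.095 CPM of Ltf, 0.032 of Camp and 0 of Ngp. Ly6g, the surface marker of mature mouse neutrophils, was at 1.23 CPM in LD mouse 2 and at 0.4657 to 1.37 CPM in the CD mice. Of the 10 neutrophil markers 3 were tested (Ly6g, Cxcr2 and Csf3r), and 0 of them were called by edgeR, with 1 (Csf3r) at an unadjusted p under 0.05. The part of neutrophils in the S100a8 and S100a9 result was not tested.

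S100a6, also called calcyclin and found in fibroblasts and epithelia, had 4.11, 8.91, 2.89, 6.94 and 5.45 CPM in LD mice 1 to 5 and 3.54, 4.05, 3.35, 3.21 and 3.41 CPM in the CD mice. LD mouse 3 was below every CD mouse and the other 4 were above them, and the difference missed the threshold in edgeR (log2 fold change 0.69 ± 0.24, adjusted p = 0.0512). It passed it with DESeq2 (adjusted p = 0.0222) and in edgeR with library size alone (adjusted p = 0.034). Without LD mouse 3 the change was 0.86 with an adjusted p of 0.008, and without LD mouse 2 it was 0.47 with an adjusted p of 0.117. The 3 mesothelium markers (Msln, Upk3b and Lrrn4) summed to 1.68 CPM in LD mouse 3, against 11.4 to 19.1 in the other LD mice and 13.1 to 22.8 in the CD mice. Whether the liver surface kept in each piece bears on S100a6 was not tested.

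Markers of other cell types that could carry these RNAs moved unevenly. Among 9 macrophage markers, 3 were called higher on LD (Cd68, Ccr2 and Itgax) and 6 were not called. They summed to 976 CPM in LD mouse 2, 407 to 601 CPM in the other LD mice and 305 to 604 CPM on CD. Among 9 stellate cell and fibroblast markers 4 were called higher (Col1a1, Col1a2, Col3a1 and Timp1), with sums of 538 to 771 CPM on LD and 419 to 544 CPM on CD. Of 6 cholangiocyte markers only Spp1 was called (higher), while Krt19, Krt7 and Epcam were low, between 0.124 and 2.92 CPM. Of 7 lymphocyte markers 1 was called higher (Cd8a; sums 3.63 to 9.44 CPM on LD, 3.86 to 5.21 on CD), of 6 endothelial markers 1 (Lyve1; sums 398 to 557 on LD, 440 to 547 on CD). Of 5 hepatocyte markers Tat was called lower, with sums, mostly of Alb, of 74123 to 92438 CPM on LD and 76271 to 91469 CPM on CD. Hnf4a passed the adjusted p but not the fold threshold (400 ± 34.7 CPM on LD, 478 ± 19.3 on CD, adjusted p = 0.0176 in edgeR). Of the 3 mesothelium markers 0 were called by edgeR, and 0 had an unadjusted p under 0.05. Alas2, the 1 erythroid marker tested, was not called (121 to 154 CPM on LD, 152 to 172 on CD). Besides Csf3r and Hnf4a, 8 markers that were not called had an unadjusted p under 0.05 in edgeR (0.0163 to 0.0429), of which Epcam, Ms4a1, Nkg7, Lrat and Des had higher and Kdr, Apoa1 and Alas2 lower fitted levels on LD. The 4 adipocyte markers were not tested, with sums of at most 0.116 CPM. The part of each cell type in the changes of the 10 genes was not tested.

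The order of the 10 genes by TPM on CD was S100a10, Anxa5, Anxa2, Anxa1, S100a6, Anxa3, S100a9, S100a11, S100a4 and S100a8. The first 3 were separated from the next gene in all mice (Anxa5 105 ± 8.69, Anxa2 27.3 ± 3.56, Anxa1 10.2 ± 1.76 TPM), and Anxa3 (7.19 ± 1.12 TPM) lay above S100a9 (3.27 ± 0.927 TPM). Anxa1, S100a6 and Anxa3 overlapped as neighbours in that order, as did S100a9, S100a11, S100a4 and S100a8. On LD the same 3 genes led, but Anxa5 (298 ± 112 TPM) and Anxa2 (160 ± 66.8 TPM) overlapped, and so did every pair of neighbours below them. S100a9 and S100a8 had the fourth and the fifth highest means with LD mouse 2, at 136 and 124 TPM in that mouse. Without it they were the last of the order, S100a8 at 7.89 ± 1.47 and S100a9 at 7.38 ± 1.77 TPM (SD, n = 4), and both overlapped with S100a4 at 8.96 ± 2.64 TPM. In that order S100a10, Anxa5 and Anxa2 still led, and Anxa2 no longer overlapped with the next gene, Anxa1. The ratio of S100a9 TPM to S100a8 TPM was 1.16 to 1.55 on CD and 0.727 to 1.29 on LD, with 1.09 in LD mouse 2.

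Genes outside the 10 were compared by the root mean square (RMS) difference of log2 CPM, each centred on its own mean over the 10 mice. Over all mice S100a8 and S100a9 were nearest to each other (0.330), with Chil3, a chitinase-like product of myeloid cells, next for S100a8 (0.757) and Sirpb1a next for S100a9 (0.800). Over the 9 mice other than LD mouse 2 their difference was little changed (0.348), but S100a9 then ranked 34 among the genes nearest to S100a8, and the nearest genes were Pnldc1 for S100a8 (0.1802) and Fam19a5 for S100a9 (0.229). For 5 genes the nearest gene was the same with and without that mouse. These were S100a10 with Plscr1, a phospholipid scramblase (0.113 and 0.119), Anxa5 with Hspb1, a small heat shock protein (0.112 and 0.118), Anxa1 with Rgs2, a regulator of G protein signalling (0.0851 and 0.0852), Anxa3 with Cnn2 (0.0840 and 0.0764) and S100a11 with Iqgap3 (0.226 and 0.222). Nearest to Anxa2 were Mthfd1l, an enzyme of mitochondrial folate metabolism, and Lgals1, a galectin (both 0.283), and without that mouse Chil3 (0.245) and Cdkn1a (0.255). S100a4 was nearest to Ctse, an aspartic protease (0.242), and then to Limk1 (0.175), and S100a6 to Agpat4 (0.181) and then to Crip1 (0.163).

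Of 19 other S100 and annexin genes 10 were tested, 2 were called higher on LD and 0 lower, with a median log2 fold change of 0.08. Anxa7, an annexin of secretory membranes, lay at 172 to 206 CPM on LD, against 127 to 149 on CD (1.32-fold, adjusted p = 0.000955). Anxa4, an annexin of epithelial membranes, lay at 62.8 to 82.5 CPM on LD, against 52.5 to 57.4 on CD (1.30-fold, adjusted p = 0.00229). The groups did not overlap for either gene, but both calls were lost in edgeR's test against a fold of 1.2. S100a1, at 103 ± 6.06 CPM on LD and 100 ± 9.63 on CD, had a log2 fold change of 0.04 ± 0.07, and Anxa6, at 148 ± 15.8 and 148 ± 3.16 CPM, one of 0.00 ± 0.07. S100a13, S100a16 and Anxa11 had values between -0.03 and 0.12. Anxa8 had 1.95 ± 0.849 CPM on LD and 1.12 ± 0.248 on CD (adjusted p = 0.0592), and Anxa9 and Anxa13, with log2 fold changes of -0.14 ± 0.22 and 0.16 ± 0.49, were not called either. S100a5, S100z and Anxa10 were at 0 counts in all 10 libraries, and S100a2, S100a3, S100a7a, S100a14 and S100b had at most 6 read pairs over the 5 libraries of a diet. S100g, a calcium-binding protein of epithelia, was not tested either, at 0.599 ± 0.358 CPM on LD and 0.107 ± 0.0774 on CD.

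**Figure D2:**
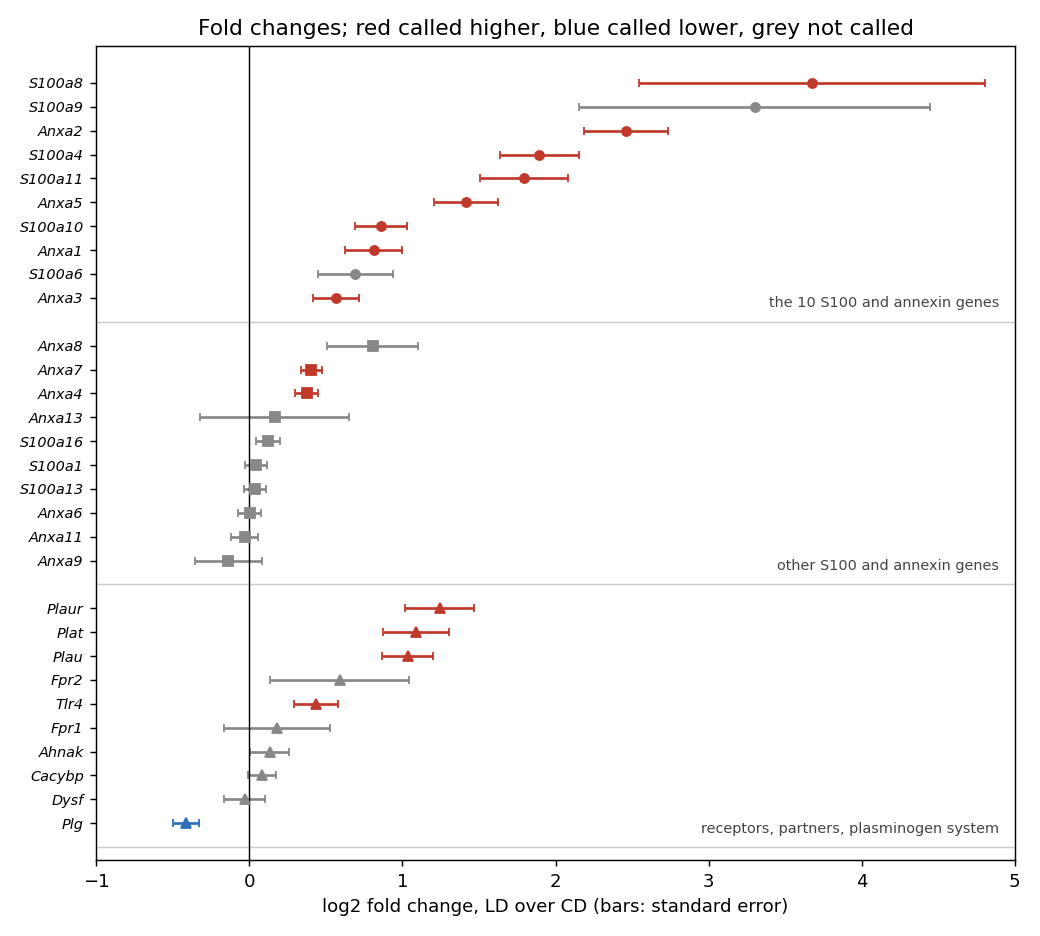
Fold change of RNA on LD over CD on the log2 scale with its standard error, for the 10 genes (circles), the tested other S100 and annexin genes (squares) and their receptors, partners and the plasminogen system (triangles), with red for called higher, blue for called lower and grey for not called. Anxa2 is at 2.46 and S100a8 at 3.67 with a wide error, while most of the other family genes lie near 0.

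Among 12 genes of receptors, partners and the plasminogen system 10 were tested, 4 were called higher and 1 lower on LD. Plaur, the urokinase receptor, ranged from 0.866 to 1.55 CPM on LD, against 0.414 to 0.642 on CD (2.37-fold, adjusted p = 0.00137). Plat, the tissue plasminogen activator, lay at 2.03 to 4.89 CPM on LD, against 1.44 to 1.91 on CD (2.13-fold, adjusted p = 0.00235). Plau, urokinase itself, lay at 4.49 to 6.35 CPM on LD, against 1.82 to 3.50 on CD (2.05-fold, adjusted p = 0.000629). Plasminogen, the substrate of both and a secreted product of hepatocytes, moved the other way. Plg averaged 1178 ± 108 CPM on LD, against 1566 ± 127 on CD (log2 fold change -0.41 ± 0.08, adjusted p = 0.00314), with no overlap. Its call was lost in edgeR's test against a fold of 1.2.

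Tlr4, a receptor of S100a8 and S100a9, lay at 9.31 to 17.3 CPM on LD, against 8.89 to 12.3 on CD (1.35-fold, adjusted p = 0.0389), and the groups overlapped. That call held without LD mouse 4 or CD mouse 2 and was lost without any 1 of the other 8 mice (adjusted p = 0.0523 to 0.0893). Fpr1 and Fpr2, the formyl peptide receptors that annexin A1 engages, had log2 fold changes of 0.18 ± 0.35 and 0.59 ± 0.45 and were not called. Ahnak, a scaffold that binds the annexin A2 and S100a10 complex, averaged 179 ± 40.2 CPM on LD, against 164 ± 11.4 on CD, and was not called, nor were Cacybp (log2 fold change 0.08 ± 0.09) and Dysf (-0.03 ± 0.13). Ager (0.0938 ± 0.0625 CPM on LD) and Fpr3 (0 in all libraries) were not tested.

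H3K27ac was compared as the share of each gene and 20 kb on either side that lay under the peaks of a sample. This share was higher in all 3 LD than in all 3 CD samples for 7 of the 10 genes (S100a4, S100a6, S100a10, S100a11, Anxa2, Anxa3 and Anxa5) and lower for none. Over 13490 genes it was higher for 22.1% and lower for 6.03%, and among the 1859 genes called higher in RNA it was higher for 43.9%. Peaks covered more of the genome in the LD samples, and with coverage divided by that share 6 of the 10 genes were higher and 0 lower, against 12.9% and 16.4% of all genes. With 5 kb on either side in place of 20 kb, 4 of the 10 genes were higher, against 17.1% of all genes. The windows of S100a4 and S100a6 overlap, as do those of S100a8 and S100a9 and those of S100a10 and S100a11, so these are not independent. With 3 samples a diet the exact two-sided permutation test could not go below p = 0.1, the value it gave for each of the 7 genes. The median difference was 7.91 percentage points for the 10 genes and 0.783 for all genes, and on CD the 10 genes had a median coverage of 5.65% against 13.9%.

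**Figure D3:**
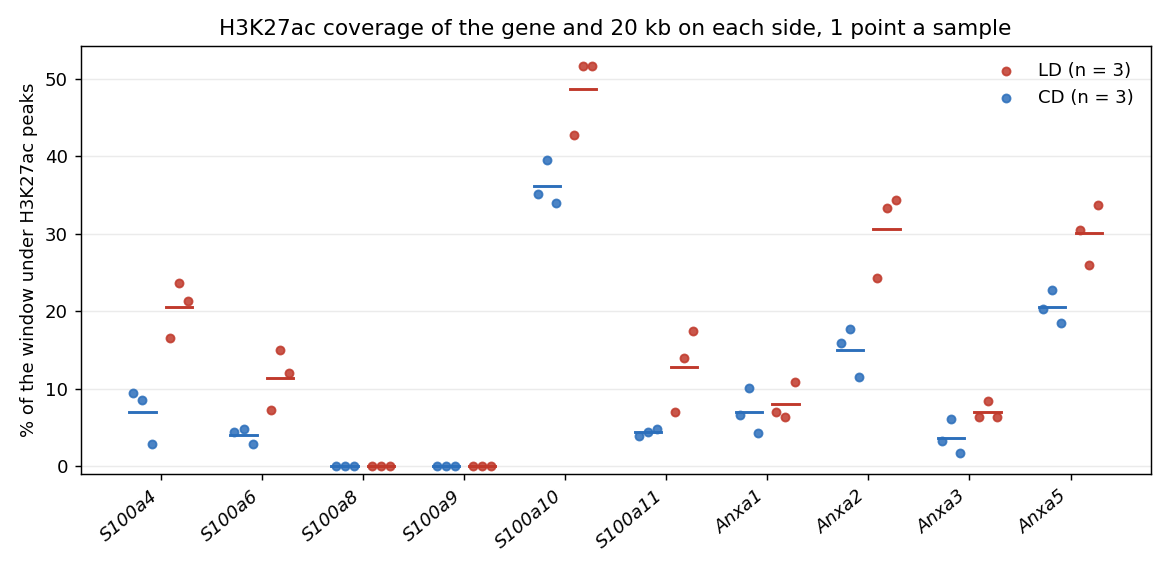
Percent of each gene with 20 kb on either side that lies under H3K27ac peaks, 1 point a sample, with LD in red, CD in blue and the mean as a bar. S100a10 is covered most (33.9% to 51.7%), S100a8 and S100a9 are at 0 in all 6 samples, and the diets are apart for 7 genes.

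Anxa2 was covered by 24.3%, 33.3% and 34.3% on LD, against 15.9%, 17.7% and 11.5% on CD, a mean of 30.6 ± 5.49% against 15.0 ± 3.16%. Its peaks fell in 9 loci (peaks merged over the samples). The loci over the start site and from 8891 bases upstream were present in all 6 samples, 1 further locus in CD only was seen in 1 sample, and the remaining 6 were in more LD than CD samples. S100a4 was covered by 16.6%, 23.6% and 21.3% on LD, against 9.45%, 8.51% and 2.84% on CD. A locus over the S100a4 start site was present in LD samples 2 and 3 and in no CD sample. S100a6, whose start site was marked in all 6 samples, had 7.22%, 14.9% and 12.04% on LD and 4.33%, 4.81% and 2.89% on CD.

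S100a10 had 42.8%, 51.7% and 51.7% on LD, against 35.1%, 39.6% and 33.9% on CD. S100a11 had 6.98%, 13.97% and 17.5% on LD and 3.93%, 4.37% and 4.80% on CD. Between these genes, at chr3:93340401-93344199, a locus 14840 bases upstream of S100a10 and 15983 bases downstream of the S100a11 start was present in all 3 LD and in no CD samples. Anxa5 had 30.5%, 25.98% and 33.7% on LD and 20.3%, 22.7% and 18.5% on CD, and it too had such a locus, at chr3:36384601-36386399, 9792 bases upstream. Both loci lie between genes, and the Hnf4a sites printed above are inside them.

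Anxa3 had 6.26%, 8.42% and 6.26% on LD against 3.24%, 6.05% and 1.73% on CD, the narrowest of the 7 separations. For Anxa1 the diets overlapped (6.98%, 6.29% and 10.8% on LD, 6.64%, 10.1% and 4.19% on CD, exact permutation p = 0.6). S100a8 and S100a9 had no H3K27ac peak within 20 kb in any of the 6 samples.

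In all, the 10 genes had 37 distinct H3K27ac loci, of which 14 were present in all 6 samples. 22 were present in more LD than CD samples and 1 in more CD than LD samples, where 31.0% and 15.0% of 62774 loci in the genome were. 2 were present in all LD and no CD samples and 0 in all CD and no LD samples, where the genome had 2.5% and 0.605%.

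Hnf4a and C/EBPa, factors that hold the hepatocyte program, were compared by the summed height of their peaks within 20 kb of each gene, in normalized tag counts. With 2 samples a diet no exact permutation test can reach 0.05, so these are values without a call. Both Hnf4a samples of LD were above both of CD for 2 of the 10 genes (Anxa2 and S100a11) and below for none, where 11.8% and 4.6% of all genes were. For C/EBPa, 2 genes were above (Anxa2 and S100a9) and 1 below (S100a6), where 9.19% and 35.5% of all genes were. A gene without a peak in any sample cannot be apart in either direction. That held for S100a4 and S100a6 with Hnf4a, and for S100a4 and Anxa1 with C/EBPa. The C/EBPa results of S100a6 and S100a9 rest on few, low peaks.

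**Figure D4:**
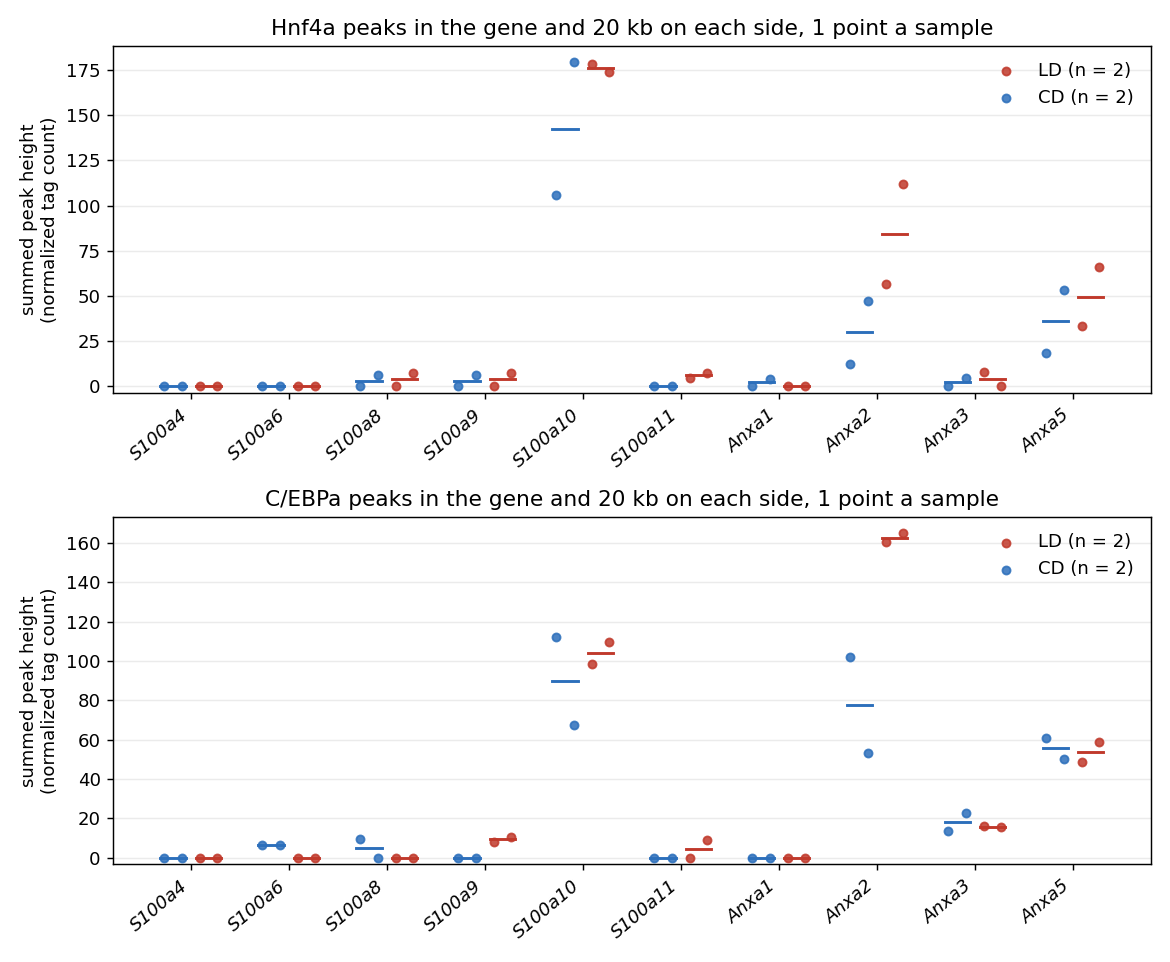
Summed peak height of Hnf4a and C/EBPa within 20 kb of each gene, 1 point a sample, with LD in red, CD in blue and the mean as a bar. Only S100a10, Anxa2 and Anxa5 have sums above 25 in either plot, and both factors are higher on LD at Anxa2.

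Anxa2 was the 1 gene of the 10 that was higher on LD for both factors. Its Hnf4a sums were 56.4 and 111.7 on LD, against 12.2 and 47.4 on CD, and the peak lists hold 46363 and 44247 peaks for LD and 35143 and 47992 for CD. Its C/EBPa sums were 160.5 and 165 on LD, against 102 and 53 on CD, a ratio of means of 2.10. The median ratio was 0.767 over the genes with mean C/EBPa sums above 0 on both diets. For each factor the lowest Anxa2 sum came from the sample with the lowest median height over all its peaks. For Hnf4a these medians were 19.2 and 19.5 on LD and 15.2 and 21.5 on CD. For C/EBPa they were 11.5 and 12.5 on LD and 8.5 in CD sample 2, with CD sample 1 the highest. The part of these sample-wide heights in the Anxa2 differences was not tested. At the C/EBPa site printed above, the heights were 89.5 and 85.5 on LD and 69.5 and 43.5 on CD. An Hnf4a peak at chr9:69287579-69287832, given because it lies at that site, had 20.8 and 37.8 on LD and 0 and 15.2 on CD. The strongest Hnf4a locus of the window was chr9:69290167-69290392, 11214 bases upstream, with 20.8 and 31.2 on LD and 12.2 and 20.2 on CD.

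S100a10 had the highest Hnf4a sums, 178.3 and 174 on LD and 105.7 and 179.4 on CD, with overlap between the diets. Its strongest Hnf4a locus, chr3:93357300-93357533, lies 1611 bases upstream of the start, with heights of 60.5 and 57.8 on LD and 49.5 and 82.2 on CD. No match to any of the 3 strings was in the window of 100 bases to either side of its centre. The C/EBPa sums of S100a10 were 98.5 and 109.5 on LD and 112.5 and 67.5 on CD, with overlap.

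Anxa5 had Hnf4a sums of 33.3 and 66.0 on LD and 18.6 and 53.5 on CD and C/EBPa sums of 48.5 and 59.0 on LD and 61 and 50 on CD, and neither was apart. Its strongest Hnf4a locus, in an intron 3827 bases downstream of the start, had 12.8 and 28.8 on LD and 10.8 and 20.2 on CD. The locus chr3:36381849-36382089, chosen after its values were seen and lying 7145 bases upstream, went the other way, with no Hnf4a peak on LD and 7.75 and 17.5 on CD. The Hnf4a site in the stretch marked by H3K27ac on LD alone had 15.2 and 24.0 on LD and 0 and 15.8 on CD, and the C/EBPa site there had 19.0 and 22.0 on LD and 15.5 and 12 on CD. At the corresponding site between S100a11 and S100a10, Hnf4a had 4.50 and 7.50 on LD and no peak on CD.

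The other genes had few peaks, and low ones. Anxa3 had C/EBPa sums of 16 and 15.5 on LD and 13.5 and 22.5 on CD, with its intronic site at 10 and 9.50 on LD and 7 and 8 on CD. S100a9 had 1 C/EBPa locus, 12946 bases upstream, at 8 and 10.5 on LD and absent on CD. S100a8 had 1 C/EBPa peak over its promoter, at 9.50 in CD sample 1 alone. S100a6 had C/EBPa peaks of 6.50 in both CD samples, at different places. Near S100a4 neither factor had a peak, and near Anxa1 the single peak was one of Hnf4a in CD sample 2 at 4.25.

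PCHi-C lists interactions with a CHiCAGO score, a measure of evidence above the background of that distance, of at least 5 and a span of at most 1 Mb. The lists used here pool the 2 samples of a diet, so their scores and counts come without a replicate check or a test. None of the 10 genes had at least 1.5 times as many interactions on LD as on CD, and 1 (Anxa1, 2 against 3) had at least 1.5 times as many on CD, where 27.4% and 20.4% of 10846 genes did. S100a11 had 46 on LD and 55 on CD, S100a6 had 44 and 50, S100a4 had 43 and 51, S100a10 had 31 and 27, Anxa5 had 22 and 29, S100a9 had 19 and 27, S100a8 had 16 and 23, Anxa3 had 11 and 16, and Anxa2 had 2 and 2. The median over all genes was 5 on either diet, below the numbers of all of the 10 genes but Anxa1 and Anxa2. A ratio of 1.5 is reached more easily from small numbers, so the shares of all genes are not a like-for-like measure here. The S100a4 fragment also carries S100a5, the Anxa2 fragment also carries Gm4978, and the Anxa5 fragment also carries 1810062G17Rik and Mir7009, so these baits do not tell the genes apart.

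The promoter fragments of S100a4, S100a6, S100a8 and S100a9, near each other on chromosome 3, were linked to those of other S100 genes. S100a6 and S100a4 were each linked to the fragments of S100a1 with S100a13, of S100a14 and of S100a16 on both diets, over 70.3 to 97.2 kb, with scores of 8.13 to 20.94. S100a6 was also linked to S100a3, and S100a4 to S100a7a, on both diets. The link of S100a8 and S100a9, 26.5 kb apart, scored 8.52 on LD and 10.09 on CD. S100a8 was linked to S100a7a (11.77 on LD, 11.32 on CD) and to S100a14 (10.65 and 8.28) on both diets, and to S100a16 on LD alone (5.91). S100a9 was linked to S100a16 on both diets (5.23 on LD, 6.34 on CD), to S100a1 with S100a13 on LD alone (5.07), and to S100a7a (5.76) and S100a14 (5) on CD alone. S100a10 and S100a11 had no listed link to another S100 fragment.

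S100a10 had the highest scores of the 10 genes. Within 100 kb it had 23 interactions, 22 of them on both diets, all downstream, at 7.32 to 58.5 kb from the promoter fragment. The score peaked at the fragment chr3:93397680-93399060, 43.0 kb away, with 34.62 on LD and 44.12 on CD. H3K27ac was present in all 6 samples on 14 of the 23 fragments, and 2 neighbouring fragments at 41.1 and 42.1 kb carried it in 2 LD samples and in no CD sample. Of the 24 interactions of S100a10 on both diets, 22 had the higher score on CD and 2 on LD, where 52.4% of 105082 such interactions in the genome had the higher score on CD. The same numbers for CD and LD were 17 and 1 for S100a9, 24 and 12 for S100a11, 27 and 16 for S100a6, 9 and 4 for S100a8, 21 and 20 for S100a4, 11 and 10 for Anxa5, and 4 and 4 for Anxa3, while Anxa1 and Anxa2 had 1 such interaction each, higher on CD. Neighbouring fragments of 1 bait are not independent, so these are descriptions of the lists.

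**Figure D5:**
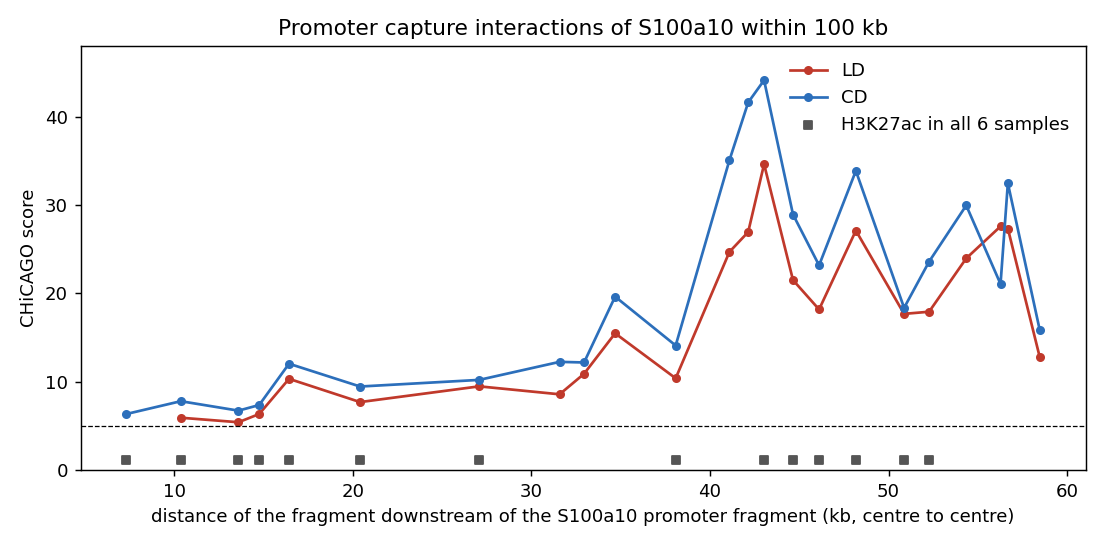
CHiCAGO score of the interactions of the S100a10 promoter fragment against the distance downstream in kb, for the pooled LD (red) and CD (blue) lists, with grey squares where the fragment carried H3K27ac in all 6 samples and a dashed line at the score of 5. The scores rise to 34.62 on LD and 44.12 on CD at 43.0 kb.

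Anxa2 was linked to the promoter fragment of Ice2, 54.7 kb away, on both diets (7.29 on LD and 9.54 on CD), to that of Gtf2a2, 559.4 kb away, on LD alone (8.67), and to Gm15511 on CD alone (5.59). Anxa3 was linked to 19 fragments on either diet, of which 8 were on both, all 411.3 to 540.9 kb upstream, and 6 of the 19 carried H3K27ac in at least 1 sample. The 4 fragments linked to Anxa1 carried none.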

How the data were processed

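The 10 genes, the other gene lists and the motif strings were chosen with earlier results of these data known. RNA reads were aligned by the authors to mm9 with STAR 2.5 and counted by strand on RefSeq genes with featureCounts 1.5.0-p1 (versions from the submitters' processing notes), and the deposited counts are not normalized. TPM values were deposited by the authors too, and 1 of their CD columns has a replicate number that no sample carries, so it was used as a CD value without a number. The authors' table also holds their own fold changes and adjusted p-values, which were not used. H3K27ac peaks (intervals) were called by the authors in each sample with SICER. Hnf4a and C/EBPa peaks were called by the authors in each sample with HOMER, and the deposited height is a signal (tag count normalized to a common depth). The CHiCAGO score was deposited by the authors for the pooled replicates of a diet. Hi-C domains were not used.

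Counts were fitted in R 4.3.3 with edgeR 4.0.16 (TMM, filterByExpr, robust quasi-likelihood test, Benjamini-Hochberg over all tested rows), a gene being called at an adjusted p under 0.05 and a fold change above 1.2. CPM uses the TMM library sizes. Python 3.11.15 (pandas 2.3.3, numpy 2.4.6, scipy 1.17.1) served for peaks and interactions, and samtools 1.23.1 for sequences. Exact permutation tests were two-sided. An interaction belonged to a gene when its baited fragment carried the gene's name in either name column. The text names the 10 genes, the called genes of the family and partner lists, the 2 nearest patterns a gene, and the strongest factor loci and H3K27ac loci of 1 diet. Alternatives used DESeq2 1.42.0 and limma 3.58.1 (log2 TPM with 1 or 0.1 added), other filters, windows and thresholds, and the omission of each sample. The scripts were tested on simulated data. Nothing says that ChIP samples came from the mice of the RNA libraries. Same-numbered RNA libraries correlated in their deviations from the diet mean at -0.078 to 0.191, so the numbers were not taken to pair the mice.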

Additional observations from a re-analysis of the deposited data

Results flagged for a closer look

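In 34 groups of 5 mice (17 genes on 2 diets), 5 had a library at the edge whose gap to the next, over the range of the group, exceeded the critical value of 0.71 of Dixon's test, which chance exceeds in about 1 of 20 groups. LD mouse 2 was the high one for S100a8 (26.35 CPM, next 2.183), for S100a9 (38.53 CPM, next 2.46) and for Anxa3 (12.73 CPM, next 9.338). CD mouse 2 was the low one for Anxa4 (52.47 CPM, next 56.0) and the high one for Tlr4 (12.27 CPM, next 9.413).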

How the results depend on the processing

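The count of genes called higher in RNA, 8, was between 6 (edgeR's test against a fold of 1.2) and 9 over the alternatives, and none was called lower under any of them. Over all tested rows, 1859 higher and 1498 lower calls became 919 and 459 in the test against a fold of 1.2, 2433 and 908 with library size alone, 2220 and 740 with limma on log2(TPM + 1), and 2337 and 782 with 0.1 added. Of the 10 genes 7 were called higher with a block for the replicate number, which lost S100a8 (log2 fold change 2.59, adjusted p = 0.116), and leaving out single libraries gave 7 to 9. H3K27ac was higher in all LD samples for 7 genes also with same-numbered samples as pairs (32.6% of all genes, against 22.1%), and for 7 with any sample left out (26.4% to 30.7%), but for 6 with coverage divided by the share of the genome covered (12.9% of all genes), 6 with peaks of at least 1000 bp (20%) and 4 in windows of 5 kb (17.1% of all genes). The order by TPM and the nearest patterns without LD mouse 2 were added after the data were seen.

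Shares of all genes under the same setting stand in parentheses here. For Hnf4a the count of 2 higher genes became 1 with windows of 5 kb (11.3%), 1 with 50 kb (11%) and 1 with peaks above the median height (9.36%), and that of 0 lower genes became 1 with 50 kb (3.17%). Pairs by replicate number gave 3 higher (16.6%). Leaving out 1 sample, which leaves a diet with 1, gave 2 to 5 higher (12.6% to 70.3%) and 0 to 2 lower (6.23% to 60.9%), with 70.3% higher without CD sample 2 and 60.9% lower without CD sample 1. For C/EBPa the 2 higher genes became 1 with 5 kb (9.28%), 1 with 50 kb (7.81%) and 1 with peaks above the median (6.52%). The 1 lower gene became 2 with 50 kb (42%), 0 with peaks above the median (36%), and 1 to 4 with a sample left out (42% to 65.1%). Crossed pairs of the factor samples, added after the data were seen, gave for Hnf4a 2 higher (19.8%) and 0 lower (9.18%), and for C/EBPa 2 higher (13.5%) and 2 lower (44.1%). For PCHi-C the 1 gene with more interactions on CD became 2 at a score of at least 10 (28%) and 2 at a span of at most 500 kb (19.5%). No value of a single gene changed its direction where it had been called. The causes were not tested. Factor sums near S100a6, S100a8, S100a9, S100a11, Anxa1 and Anxa3 rest on 1 or a few low peaks.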
